A study of Mus musculus with 16 samples.

Results

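Lungs of mice given bleomycin together with an adenoviral vector named for ATP12A (Ad-ATP12A) were compared with lungs of control mice by RNA sequencing of bulk tissue. The comparison holds 8 of the series' 16 libraries, 4 of Ad-ATP12A lungs and 4 of control lungs, chosen by their treatment labels. The treatment label of an Ad-ATP12A library names bleomycin and Ad-ATP12A, and that of a control library reads only Control, so the 2 groups differ by bleomycin and by the vector at once. The other 8 libraries are of mice given bleomycin alone (4) and of mice given bleomycin with a GFP vector, Ad-GFP (4). Each group holds 2 libraries in each of 2 batches named in the sample titles. Libraries are called here by batch and replicate number, so that b1r2 is replicate 2 of batch 1, and values of a group are given in the order b1r1, b1r2, b2r1 and b2r2. Strain, sex, age, dose, route, the day of sampling, the species of the ATP12A sequence in the vector and the promoter that drives it are not given in the sources used here. Nothing in the labels says that 2 replicates came from 2 animals, so each p-value measures the spread between these libraries, which may be partly technical.

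Bleomycin breaks DNA, and in the mouse lung it injures alveolar epithelium and capillaries, after which inflammatory cells enter, fibroblasts lay down collagen-rich matrix and part of the epithelium passes through a keratin-rich transitional state on the way from type 2 to type 1 cells. ATP12A encodes the catalytic chain of a proton-potassium pump found outside the stomach, which exchanges protons for potassium at the apical face of some epithelia and acidifies airway surface liquid in species that express it. The mouse airway is known for its low natural level of this pump. Adenoviral vectors carry a gene into lung cells without integrating it, and the vector itself can call up antiviral and lymphocyte responses. In bulk tissue, a gene's level moves with the RNA made per cell and with the share of cells that make it, and for every result below fewer cells of a type and less RNA per cell cannot be told apart.

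Levels are in TPM, a relative abundance of transcripts corrected for their length and summing to the same total in each library, so the number of reads behind a value is unknown. Between 15537 and 16150 genes stood at 1 TPM or more in Ad-ATP12A libraries and between 15721 and 16118 in control libraries. The 10 most abundant genes took 11.98% to 20.96% of the TPM in Ad-ATP12A lungs and 16.03% to 25.81% in control lungs. The surfactant gene Sftpc, which marks alveolar type 2 cells, had 15371, 27605, 3965 and 7987 TPM in Ad-ATP12A lungs, against 17929, 16036, 27449 and 20672 TPM in control lungs, and was abundant in all 8 libraries. Scgb1a1, whose product is the chief secretion of club cells, had 61330.5, 42012, 39054 and 26780.5 TPM in Ad-ATP12A lungs, against 105447, 102724, 441 and 122337 TPM in control lungs. Control b2r1 stood apart from the other control libraries in this gene. Xist, the RNA of the inactive X chromosome of females, had 157, 130.4, 0.07 and 74.4 TPM in Ad-ATP12A lungs, against 118, 0.14, 0.49 and 0.48 TPM in control lungs. By a limit of 10 TPM, 3 of the 4 Ad-ATP12A libraries and 1 of the 4 control libraries carried Xist, and the Y-linked gene Ddx3y was between 0 and 0.03 TPM in those 4 libraries and between 30.1 and 50.9 TPM in the other 4. A second fit with a term for Xist was therefore made, and for each list below whose count of called genes it moved by 1.5 times or more, and each named gene whose call it ended, its value is given too.

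The vector's own gene separated the groups. Atp12a had 5.13, 2.96, 29.02 and 25.7 TPM in Ad-ATP12A lungs, against 0.01, 0, 0.08 and 0.02 TPM in control lungs. Every Ad-ATP12A library lay above every control library, and in Ad-ATP12A lungs both values of batch 2 exceeded both of batch 1. On the scale of log2(TPM + 1) and with batch as a term, limma, a linear model with moderated variances, gave the difference as a log2 fold change 3.52 ± 0.461 SE, adjusted p = 0.00254. An exact two-sided permutation test over the 70 ways of splitting the 8 libraries gave p = 0.0286, the smallest value that such splits allow. Those splits ignore batch; over the 36 that exchange libraries within batches only, a test added after the data were seen, the exact p was 0.0556, again the smallest possible. Within batches the difference was 2.29 in batch 1 and 4.75 in batch 2 (difference between the batches 2.46 ± 0.328 SE, adjusted p = 0.0184). The related gastric pump gene Atp4a did not reach the filter and had 0.02, 0.12, 0.16 and 0.02 TPM in Ad-ATP12A lungs, against 0.01, 0, 0 and 0 TPM in control lungs, a level at which no difference can be read. Since the species of the vector's sequence is not given, the Atp12a level holds vector reads only as far as they match the mouse gene.

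Of 16003 genes with at least 1 TPM in 4 or more of the 8 libraries, 3398 (21.2%) passed an adjusted p of 0.05 (Benjamini-Hochberg over all genes tested). Of these, 1933 (12.1% of the genes tested) were higher in Ad-ATP12A lungs and 1465 (9.15%) were lower, and every one of them had the same sign in both batches. Disagreement between the batches counts as spread in this fit, so a call all but requires the same sign, and the agreement is no separate support. The median log2 fold change over all genes tested was 0.00, and the median size of the change over the called genes was 0.81. A change of more than 1 on the log2 scale was seen for 737 of the higher and 451 of the lower genes, and a change of more than 2 for 165 and 42. The 2 groups did not overlap for 2255 genes on the higher side (14.1%) and 1781 on the lower side (11.1%). Leaving out 1 library lowered the number of called genes to between 2131 and 3101, with 2131 without control b2r1, 2225 without Ad-ATP12A b2r1 and 2246 without Ad-ATP12A b2r2, and the term for Xist left 1259. With that term all 3398 genes kept their sign. On the log2(TPM + 1) scale, used for each fold change here, the change of genes with low TPM is understated. A gene under 1 TPM in all 4 control libraries was tested only if all 4 Ad-ATP12A libraries reached 1 TPM. For such genes, among them Atp12a, Sprr2a2, Grem1, Kng1 and Foxp3, the lack of overlap in this fit follows from the filter.

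**Figure D1:**
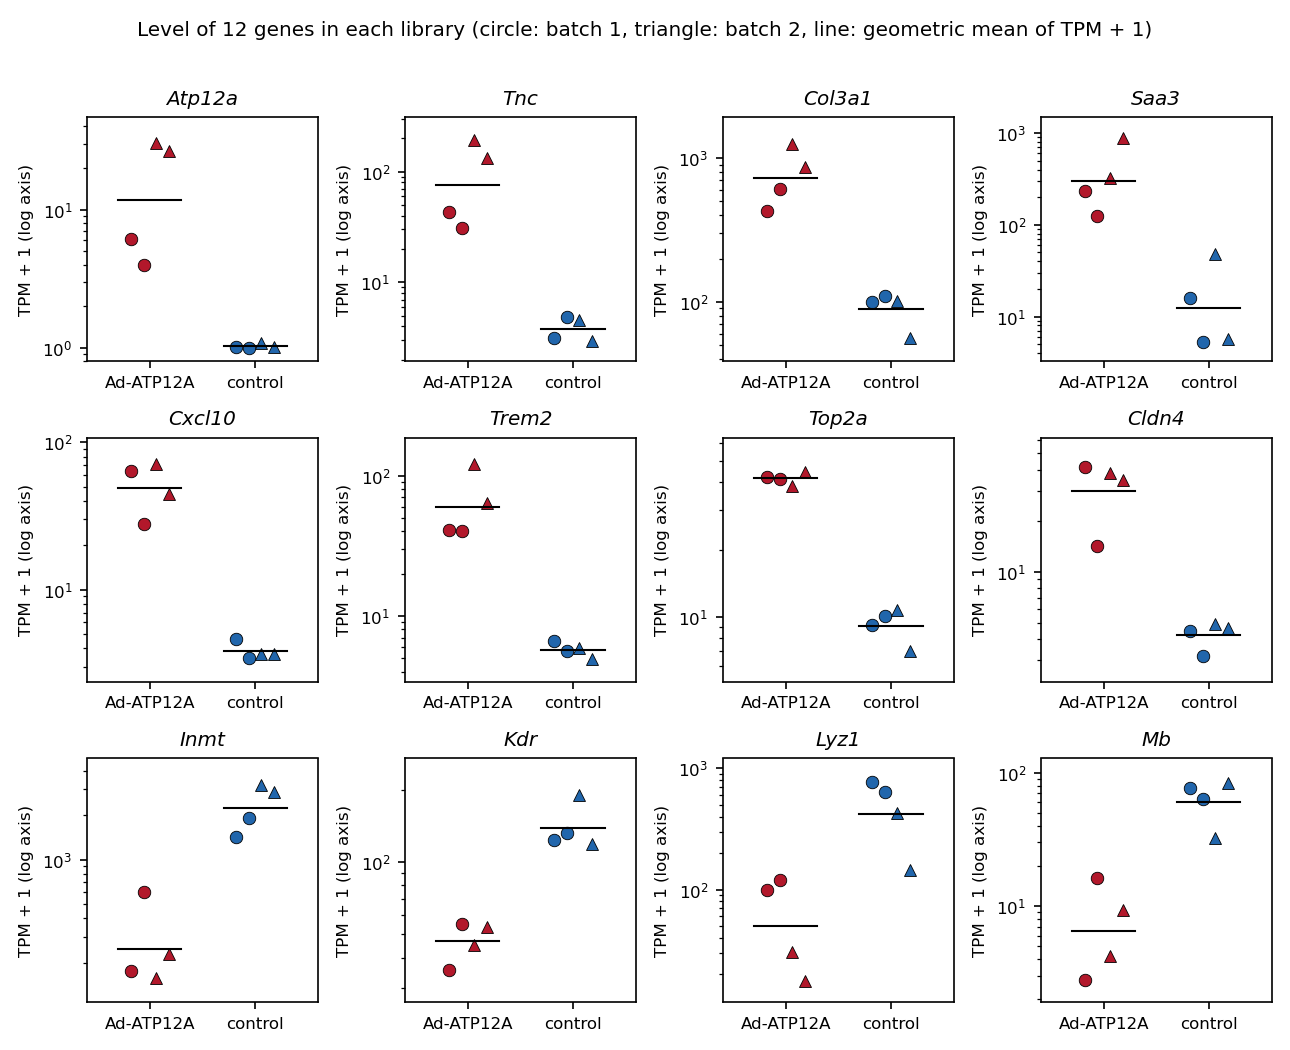
Level of 12 genes in each of the 8 libraries, as TPM + 1 on a log axis, with Ad-ATP12A lungs on the left and control lungs on the right of each panel. Circles are batch 1, triangles batch 2, and lines the geometric mean of TPM + 1. In all 12 panels the groups do not overlap: Inmt, Kdr, Lyz1 and Mb are lower in Ad-ATP12A lungs and the other 8 genes are higher. For Tnc, Saa3, Cxcl10, Inmt, Lyz1 and Mb the lack of overlap is part of the rule by which they were named.

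Many matrix genes rose. Tnc, the gene of tenascin-C, an adhesive protein laid down during repair, had 42.2, 29.7, 191 and 133 TPM in Ad-ATP12A lungs, against 2.15, 3.84, 3.61 and 1.98 TPM in control lungs. Every Ad-ATP12A value lay above every control value, and the batch 2 values were the higher within Ad-ATP12A lungs (log2 fold change 4.33 ± 0.445 SE, adjusted p = 9.7e-04). Eln, which encodes elastin, had 292, 410.5, 918 and 1090.4 TPM in Ad-ATP12A lungs, against 63.3, 39.6, 29.6 and 41.05 TPM in control lungs. The groups again did not overlap (log2 fold change 3.78 ± 0.403 SE, adjusted p = 0.00114). Of 15 collagens outside the basement membrane, 12 were higher and none was lower, with a median log2 fold change of 2.04 against 0.00 for all genes tested and 12.1% of those called higher, and with the term for Xist 8 were higher. The collagen median with that term was 1.97. Col3a1, a chain of the fibrils of soft tissue, had 427, 608, 1259 and 872 TPM in Ad-ATP12A lungs, against 99.4, 109.6, 99.7 and 55.3 TPM in control lungs. The ranges were well apart (log2 fold change 3.04 ± 0.341 SE, adjusted p = 0.00138). The chains of type I collagen, the main fibril of scars, rose as well, Col1a1 by 3.37 and Col1a2 by 2.57, as did Col15a1 by 2.14 and Col6a3 by 2.04. Col14a1, which decorates fibrils, was 18.4 ± 5.09 TPM in Ad-ATP12A lungs and 16.5 ± 2.35 TPM in control lungs (SD, n = 4 each) and did not pass (adjusted p = 0.692).

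Genes that fold, cut and bind collagen moved with it in part. Among 18 enzymes and chaperones of collagen, 10 were higher and none lower (median 1.00). P4ha3, a prolyl hydroxylase subunit, had 9.64, 8.29, 27.2 and 26.4 TPM in Ad-ATP12A lungs, against 0.68, 1.00, 0.88 and 0.73 TPM in control lungs. The groups did not overlap (log2 fold change 3.19 ± 0.292 SE, adjusted p = 6.8e-04). Lox, the crosslinking lysyl oxidase, rose by 2.51, and Serpinh1, the collagen chaperone HSP47, by 1.16. Of 22 matricellular and elastic fibre genes, 14 were higher, among them Thbs1 (thrombospondin 1) by 1.74 and Mfap5 (a microfibril protein) by 1.37. Postn, the fibroblast product periostin, was not among them at 238 ± 57.8 TPM in Ad-ATP12A lungs and 185 ± 36.6 TPM in control lungs (SD, n = 4 each) (adjusted p = 0.195). Of 22 proteases and inhibitors, 14 were higher and none lower, including the inhibitor Timp1 and the proteases Mmp14 and Mmp19. Timp1 had 161, 47.2, 269.7 and 247 TPM in Ad-ATP12A lungs, against 8.29, 8.41, 10.6 and 6.69 TPM in control lungs. Even the lowest Ad-ATP12A value was several times the highest control value (log2 fold change 4.01 ± 0.428 SE, adjusted p = 0.00114). Once Xist was a term, the higher genes numbered 6 among the collagen enzymes and 8 among the proteases and inhibitors. The medians of the 2 lists were then 1.04 and 1.23.

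Some signalling genes around TGF-beta, the growth factor that drives fibroblasts to make matrix, rose. Of 18 ligands, receptors and response genes, 7 were higher and none lower (median 0.59). The response genes Pmepa1 and Tgif1 rose by 1.63 and 0.73, and Inhba, a subunit of activin, by 2.11. Tgfb1 itself was 83.4 ± 20.7 TPM in Ad-ATP12A lungs and 58.5 ± 10.7 TPM in control lungs (SD, n = 4 each) and did not pass (adjusted p = 0.0969). Grem1, a secreted blocker of bone morphogenetic proteins, was among the largest rises with 7.21, 3.79, 65.8 and 35.7 TPM in Ad-ATP12A lungs, against 0.39, 0.30, 0.74 and 0.25 TPM in control lungs. All 4 control libraries were below 1 TPM, so the gene met the filter only through the 4 Ad-ATP12A libraries. Its lack of overlap follows from that (log2 fold change 3.65 ± 0.556 SE, adjusted p = 0.00413). In a list of 22 BMP and Wnt genes, 5 were higher and 6 lower, with Sfrp1 (a Wnt inhibitor) up by 2.18 and Bmp6, a ligand of the BMP family, changed by -2.06, and with the term for Xist these counts were 3 and 4. Of 11 genes of myofibroblasts and smooth muscle, 3 were higher, among them Adam12 by 1.91, whose adjusted p without control b2r1 was 0.0505. That count was 0 without control b2r1 and 1 without Ad-ATP12A b2r1, Ad-ATP12A b2r2 or control b2r2, and 1 with the term for Xist. Acta2, the smooth muscle actin by which myofibroblasts are often recognised, had 115, 149, 382 and 311 TPM in Ad-ATP12A lungs, against 114, 153, 151 and 117 TPM in control lungs. The groups overlapped and the gene did not pass (log2 fold change 0.68, adjusted p = 0.128).

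**Figure D2:**
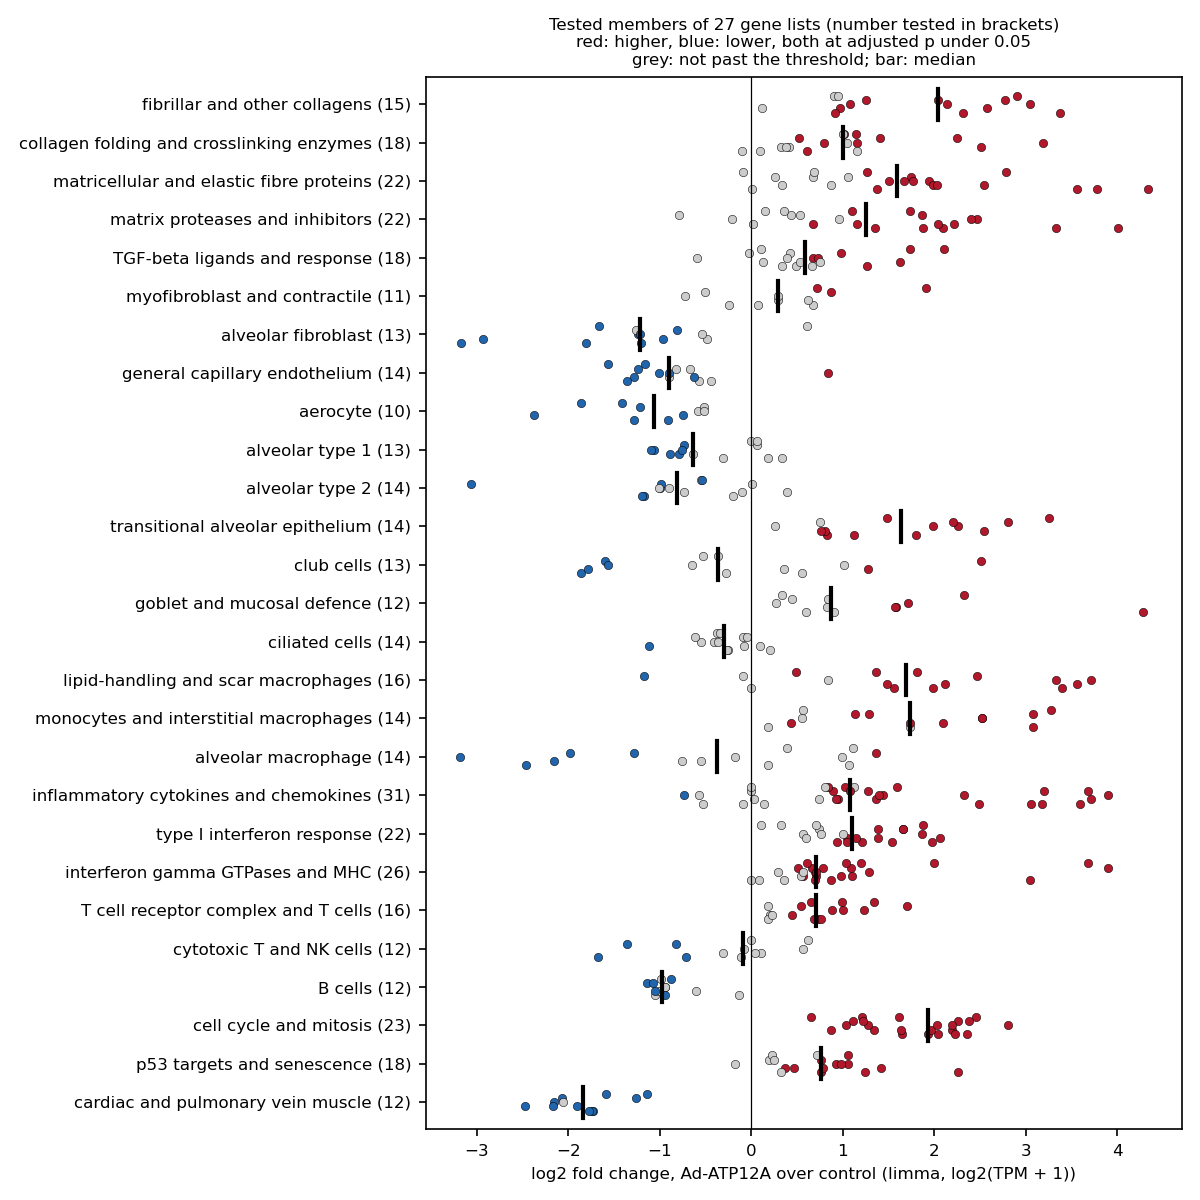
Log2 fold change of each tested member of 27 gene lists, Ad-ATP12A over control, 1 point a gene, with the number tested in brackets. Red points are higher and blue points lower at an adjusted p under 0.05, grey points did not pass, and black bars are list medians. Collagens, transitional epithelium, macrophage, chemokine and cell-cycle genes lie to the right, and alveolar fibroblast, capillary, aerocyte, B cell and cardiac muscle genes to the left.

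Many genes of resident fibroblasts, capillaries and mesothelium were lower in Ad-ATP12A lungs. Of 13 alveolar fibroblast genes, 9 were lower and none higher (median -1.21), against 9.15% of all genes called lower. Inmt, a methyltransferase abundant in these cells, had 174, 602, 156 and 227 TPM in Ad-ATP12A lungs, against 1421, 1899, 3202 and 2859.6 TPM in control lungs. The highest Ad-ATP12A library stayed below the lowest control library (log2 fold change -3.17 ± 0.453 SE, adjusted p = 0.00333). Itga8, an integrin of lipid-rich fibroblasts, and Slc7a10, an amino acid transporter, changed by -1.81 and -2.93. Ogn, a small proteoglycan of fibroblasts (osteoglycin), had 28.8, 75.9, 54.4 and 36.1 TPM in Ad-ATP12A lungs, against 269.5, 244, 207 and 367 TPM in control lungs. No Ad-ATP12A library reached the lowest control library (log2 fold change -2.52 ± 0.310 SE, adjusted p = 0.00199). Of 9 mesothelial genes, 5 were lower, such as Gpm6a (-1.30) and Rspo1 (-1.26), a count that was 3 without Ad-ATP12A b2r1 or control b1r2, and 3 with the term for Xist. Msln, the mesothelial surface protein mesothelin, went the other way with 154, 116, 188 and 142 TPM in Ad-ATP12A lungs, against 39.7, 59.9, 41.9 and 54.7 TPM in control lungs. There was no overlap between groups (log2 fold change 1.59 ± 0.184 SE, adjusted p = 0.00158).

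Capillary endothelium comes as general capillary cells and as aerocytes, which are specialised for gas exchange. Of 14 general capillary genes, 8 were lower and 1 higher, and of 10 aerocyte genes 7 were lower and none higher (medians -0.90 and -1.06). Kdr, the main receptor for VEGF-A, had 34.4, 54.3, 44.3 and 52.7 TPM in Ad-ATP12A lungs, against 123, 131, 190.2 and 118 TPM in control lungs. Both ranges were distinct (log2 fold change -1.57 ± 0.188 SE, adjusted p = 0.00184). Ednrb, the endothelin B receptor of aerocytes, had 6.44, 19.9, 7.91 and 6.48 TPM in Ad-ATP12A lungs, against 38.8, 45.4, 77.2 and 49.8 TPM in control lungs. Ednrb was among the largest falls named by rule, which requires the same direction in both batches (log2 fold change -2.37 ± 0.363 SE, adjusted p = 0.00423). Epas1, which encodes the endothelial hypoxia factor HIF-2 alpha, and Angpt1, a ligand of the Tie2 receptor, changed by -1.33 and -1.35, while Pgf, the placental growth factor, rose by 1.81. The single general capillary gene that rose was Cxcl12 (0.84), a chemokine made by several stromal cells, and its call ended without Ad-ATP12A b2r1, Ad-ATP12A b2r2, control b2r1 or control b2r2 (adjusted p = 0.0767, 0.0671, 0.0792 and 0.0679) and with the term for Xist (0.137). Pecam1, a gene of all endothelium, was 242 ± 69.9 TPM in Ad-ATP12A lungs and 375 ± 67.9 TPM in control lungs (SD, n = 4 each) and did not pass (adjusted p = 0.0707). The count of lower general capillary genes was 3 without control b1r1 or control b2r1 and 4 without Ad-ATP12A b2r1 or control b1r2. Under the term for Xist, 4 general capillary genes and 1 aerocyte gene were lower, and the list medians were -1.05 and -1.03.

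In the alveolar epithelium, some genes of mature cells were lower and most genes of the transitional state higher. Of 13 type 1 genes 6 were lower, and of 14 type 2 genes 6 were lower, with none higher in either list (medians -0.64 and -0.81). Hopx, a transcriptional cofactor of type 1 cells, had 546, 719, 485 and 549 TPM in Ad-ATP12A lungs, against 927, 1116, 1246 and 961 TPM in control lungs. Ad-ATP12A and control values did not overlap (log2 fold change -0.89 ± 0.158 SE, adjusted p = 0.00709). Ager, the most used type 1 marker, was 1475 ± 378 TPM in Ad-ATP12A lungs and 1813 ± 395 TPM in control lungs (SD, n = 4 each) and did not pass (adjusted p = 0.349). Lyz1, a lysozyme of type 2 cells, had 98.9, 119, 29.6 and 16.7 TPM in Ad-ATP12A lungs, against 768, 637, 429 and 145 TPM in control lungs. All 4 Ad-ATP12A values were below the lowest control value (log2 fold change -3.06 ± 0.348 SE, adjusted p = 0.00146). Lamp3, a lysosomal protein of these cells, and the surfactant protein gene Sftpa1 changed by -1.19 and -1.17 with overlapping groups, and Sftpc did not pass (log2 fold change -0.90, adjusted p = 0.24). The type 1 count was 1 without control b2r1 and 2 without Ad-ATP12A b1r1 or control b1r2. With the term for Xist it was 0, with Hopx at an adjusted p of 0.0514, and the type 2 count was 3, with Sftpa1 at 0.0541. The type 1 and type 2 medians with that term were -0.63 and -0.91. In a fit of all 16 libraries the type 2 count was 1, and Lamp3 and Sftpa1 did not pass (adjusted p = 0.105 and 0.143).

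Of 14 genes of transitional epithelium, 12 were higher and none lower, with a median of 1.64. Cldn4, a tight junction claudin, had 40.6, 13.2, 37.4 and 33.8 TPM in Ad-ATP12A lungs, against 3.46, 2.17, 3.90 and 3.64 TPM in control lungs. Every Ad-ATP12A library was above every control library (log2 fold change 2.81 ± 0.306 SE, adjusted p = 0.00121). Sprr1a, a cornified envelope protein of stressed epithelium, had 19.9, 9.08, 19.7 and 13.8 TPM in Ad-ATP12A lungs, against 1.50, 0.81, 0.22 and 0.41 TPM in control lungs. No control library came near the lowest Ad-ATP12A value (log2 fold change 3.25 ± 0.300 SE, adjusted p = 6.8e-04). Its relative Sprr2a2 was the second largest of the 15 rises named by rule, with 83.7, 26.9, 17.03 and 14.5 TPM in Ad-ATP12A lungs, against 0.62, 0.82, 0 and 0.12 TPM in control lungs (log2 fold change 4.40 ± 0.339 SE, adjusted p = 4.5e-04); reads of the closely alike Sprr2a copies may be split among them. Krt8, the keratin for which the state is often named, rose by 0.83, and Cdkn1a, the p53 target p21, by 2.26. The 2 members that did not pass were Krt19 (log2 fold change 0.26) and Itgb6 (0.75). None of the 8 basal and squamous genes, Krt5 and Trp63 among them, reached the filter, and their summed level was 4.94, 1.98, 2.21 and 2.69 TPM in Ad-ATP12A lungs, against 1.27, 1.07, 2.53 and 0.87 TPM in control lungs.

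The airway lists gave mixed counts. Of 13 club cell genes, 4 were lower and 2 higher (median -0.36), against 9.15% and 12.1% of all genes tested. The share called higher was near that of all genes. Cyp2f2, a cytochrome of club cells, had 1059.7, 1229, 383 and 648 TPM in Ad-ATP12A lungs, against 2051, 1879, 2972 and 2404 TPM in control lungs. The lowest control value was still above the highest Ad-ATP12A value (log2 fold change -1.60 ± 0.337 SE, adjusted p = 0.0138). The counts with the term for Xist were 3 lower and 1 higher. The detoxifying enzymes Gsta3 and Aox3 changed by -1.86 and -1.78. Reg3g, a secreted antibacterial lectin, was higher with 448, 305, 87.9 and 88.4 TPM in Ad-ATP12A lungs, against 40.03, 50.7, 32.2 and 13.8 TPM in control lungs. The batch 1 values were the higher within Ad-ATP12A lungs (log2 fold change 2.51 ± 0.302 SE, adjusted p = 0.00188). Of 12 goblet and mucosal defence genes, 5 were higher and none lower, a count that was 3 without Ad-ATP12A b1r1 or Ad-ATP12A b1r2, and 3 with the term for Xist. Agr2, a disulfide isomerase needed to make mucin, had 22.7, 22.5, 10.4 and 9.75 TPM in Ad-ATP12A lungs, against 3.12, 3.39, 1.51 and 1.39 TPM in control lungs. The spread within groups was small beside the difference (log2 fold change 2.32 ± 0.120 SE, adjusted p = 1.6e-04). Slc26a4, the airway anion exchanger pendrin, rose by 1.57. Of 14 genes of ciliated cells 1 was lower (Tppp3, -1.12), near the 9.15% of all genes called lower. That call ended without Ad-ATP12A b2r1, Ad-ATP12A b2r2, control b2r1 or control b2r2 (adjusted p = 0.0617, 0.0637, 0.0705 and 0.0559) and with the term for Xist (0.104).

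Genes of dividing cells rose without exception on the list. All 23 cell-cycle genes tested were higher in Ad-ATP12A lungs, against 12.1% of all genes tested, with a median of 1.93 and a range of 0.65 to 2.81. Top2a, the topoisomerase that untangles chromosomes before division, had 41.4, 40.3, 37.6 and 43.3 TPM in Ad-ATP12A lungs, against 8.19, 9.07, 9.78 and 6.01 TPM in control lungs. The 4 Ad-ATP12A values lay close together and above all control values (log2 fold change 2.19 ± 0.148 SE, adjusted p = 3.4e-04). Aurka, a kinase of the spindle poles, had 10.3, 7.91, 9.53 and 10.4 TPM in Ad-ATP12A lungs, against 1.97, 2.11, 1.52 and 1.47 TPM in control lungs. Batches gave near equal differences, 1.72 in batch 1 and 2.13 in batch 2 (log2 fold change 1.93 ± 0.147 SE, adjusted p = 4.5e-04). Ccna2 (cyclin A2), Tyms (thymidylate synthase) and Aurkb (a kinase of the mitotic midzone) rose by 2.26, 1.64 and 1.96. The smallest rise was that of Pcna, the replication clamp, at 0.65, with an adjusted p of 0.0075 that became 0.065 with the term for Xist. With each single library left out, 22 or 23 of these genes stayed called, and 21 with the term for Xist.

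The starts of cell-cycle genes are known to carry CCAAT boxes, bound by NF-Y, and the sequence TTTGAA of the cell-cycle homology region, through which a repressor complex holds them silent in resting cells. RefSeq promoter windows (GRCm38.p6, 250 bases before to 50 after the start) were found for 20 of the 23 genes and were searched on both strands. CCAAT was found in 17 of the 20, against 41.1% of 27025 genes with a window, and TTTGAA in 11 of the 20, against 20.2%. The 250 bases before the start of the 2 genes described above are shown 5′ to 3′ on the strand of the gene, because their promoters show how such boxes are arrayed, with the CCAAT box, the homology region core and the reverse complement of each in capitals. Top2a is on the minus strand at chr11:99024190-99024439 and Aurka on the minus strand at chr2:172370571-172370820.
Top2a: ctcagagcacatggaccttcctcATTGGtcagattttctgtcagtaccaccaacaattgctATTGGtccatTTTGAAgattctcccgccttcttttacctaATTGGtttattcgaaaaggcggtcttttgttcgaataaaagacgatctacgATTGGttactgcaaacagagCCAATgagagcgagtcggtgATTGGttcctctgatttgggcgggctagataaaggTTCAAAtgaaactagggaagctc
Aurka: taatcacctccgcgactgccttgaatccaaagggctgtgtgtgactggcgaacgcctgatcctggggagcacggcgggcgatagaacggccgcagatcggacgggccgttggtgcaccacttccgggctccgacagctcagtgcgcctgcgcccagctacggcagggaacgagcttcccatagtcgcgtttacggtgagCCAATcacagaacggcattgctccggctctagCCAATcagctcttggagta
In Top2a, 6 CCAAT boxes and 2 copies of TTTGAA were found, counting either strand. The copy beginning 23 bases before the start reads TTCAAA, the reverse complement. Aurka had 2 CCAAT boxes, beginning 51 and 19 bases before the start, and no TTTGAA in this window. A match is a description of the letters and not a measured site.

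Targets of p53, which bleomycin's DNA breaks can activate, were higher for 12 of 18 genes and lower for none (median 0.76). Cdkn1a, which halts the cell cycle, had 198, 156, 283 and 248 TPM in Ad-ATP12A lungs, against 57.9, 59.2, 28.4 and 39.3 TPM in control lungs. The groups did not overlap (log2 fold change 2.26 ± 0.275 SE, adjusted p = 0.00192). Bax, which opens mitochondria in apoptosis, rose by 0.93, Phlda3 by 1.06 and the senescence gene Cdkn2a by 1.06. The apoptosis gene Bbc3 did not pass (log2 fold change 0.19).

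Most genes of scar and interstitial macrophages rose, while few of resident alveolar macrophages did. Of 16 genes of the lipid-handling macrophages found in scars, 12 were higher and 1 lower, with a median of 1.69. The lower gene was Cd36, a lipid scavenger receptor that endothelium also makes (-1.17, adjusted p = 0.0446), and its call ended in 6 of the 8 fits without 1 library, all but those without Ad-ATP12A b2r2 or control b2r2, with the largest adjusted p without control b1r1 (0.105). With the term for Xist the higher genes of this list numbered 8, the list median was 1.55, and Cd36 did not pass (adjusted p = 0.0902). Trem2, a lipid receptor, had 40.1, 39.01, 121 and 63.1 TPM in Ad-ATP12A lungs, against 5.57, 4.60, 4.87 and 3.96 TPM in control lungs. All control libraries were below every Ad-ATP12A library (log2 fold change 3.39 ± 0.298 SE, adjusted p = 6.2e-04). Gpnmb, a glycoprotein of lysosome-rich cells, had 96.3, 107, 425 and 424 TPM in Ad-ATP12A lungs, against 25.4, 19.1, 12.02 and 8.36 TPM in control lungs. Within Ad-ATP12A lungs the batch 2 values were far above those of batch 1 (log2 fold change 3.71 ± 0.561 SE, adjusted p = 0.00409). Spp1, the secreted matrix protein osteopontin, had 1347, 785, 3227 and 4163 TPM in Ad-ATP12A lungs, against 220.3, 145, 119 and 189 TPM in control lungs. It was the most abundant of these 3 in both groups (log2 fold change 3.56 ± 0.433 SE, adjusted p = 0.00193). Of 14 genes of monocytes and interstitial macrophages, 10 were higher and none lower (median 1.73). C1qb, a chain of the complement protein C1q that these cells make, had 259, 186, 750.4 and 408 TPM in Ad-ATP12A lungs, against 42.1, 33.2, 38.9 and 28.4 TPM in control lungs. No library of one group entered the range of the other (log2 fold change 3.27 ± 0.338 SE, adjusted p = 0.001), and C1qa and C1qc rose by 3.08 and 3.08.

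Resident alveolar macrophage genes gave 5 lower and 1 higher of 14, but the median of the list was -1.12 in batch 1 and 0.36 in batch 2. In batch 1 alone 7 were lower and 1 higher, and in batch 2 alone 3 were lower and 4 higher. Fabp1, a fatty acid binding protein, had 0.24, 1.70, 0.74 and 3.47 TPM in Ad-ATP12A lungs, against 45.7, 17.5, 15.4 and 11.2 TPM in control lungs. It was also 1 of the 15 largest falls named by rule (log2 fold change -3.18 ± 0.501 SE, adjusted p = 0.00474). Cidec, of lipid droplets, changed by -2.16, the receptor gene Cd200r1 rose by 1.36 (adjusted p = 0.0134, and 0.0877 with the term for Xist), and Siglecf, a surface marker of these cells, was 4.71 ± 4.49 TPM in Ad-ATP12A lungs and 7.88 ± 4.48 TPM in control lungs (SD, n = 4 each) and did not pass (adjusted p = 0.327). The lower count was 3 without Ad-ATP12A b1r1, Ad-ATP12A b2r1, control b1r2 or control b2r1. Genes of alternative activation, the state driven by IL-4 and IL-13, were higher for 5 of 13 and lower for 1, the higher count being 3 without control b2r1 and the lower count 0 with the term for Xist. Retnla, a secreted marker of that state, had 6836, 4482, 1828 and 4499.7 TPM in Ad-ATP12A lungs, against 178, 810.2, 225 and 59.1 TPM in control lungs. The lowest Ad-ATP12A value, in b2r1, was still above the highest control value, in b1r2 (log2 fold change 4.24 ± 0.589 SE, adjusted p = 0.00301). Arg1 (arginase 1) had 30.9, 6.73, 253 and 154 TPM in Ad-ATP12A lungs, against 3.37, 3.80, 2.87 and 2.58 TPM in control lungs. The batch 2 libraries carried most of that difference, 1.78 in batch 1 and 5.74 in batch 2, and the adjusted p of 0.014 became 0.0504 without control b2r1 and 0.0595 with the term for Xist. Lysosomal genes were higher for 11 of 18 and lower for none, with Ctss (cathepsin S) at 1356, 1273, 2439 and 2009.5 TPM in Ad-ATP12A lungs, against 336, 270.4, 218 and 223 TPM in control lungs. The 2 ranges were apart (log2 fold change 2.72 ± 0.240 SE, adjusted p = 6.2e-04). Atp6v0c, the ring subunit of the vacuolar proton pump, rose by 0.82. Under the term for Xist, 5 lysosomal genes were higher, and the list median was 0.73, against 0.81 without it.

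Most cytokine and chemokine genes on the list rose. Of 31 cytokines and chemokines, 20 were higher and 1 lower, with a median of 1.08. The lower gene was Cxcl15, a lung epithelial chemokine (-0.74, adjusted p = 0.0407), whose call ended in 7 of the 8 fits without 1 library, all but that without control b2r2, with the largest adjusted p without control b2r1 (0.11), and with the term for Xist as well (0.0976). Saa3, an acute-phase serum amyloid, had the largest log2 fold change of the 15 rises named by rule, which pass over antibody genes, with 233, 125, 323 and 878 TPM in Ad-ATP12A lungs, against 14.9, 4.24, 47.6 and 4.76 TPM in control lungs. The control libraries spread widely and still lay below the Ad-ATP12A libraries (log2 fold change 4.61 ± 0.693 SE, adjusted p = 0.00394). Ccl2, which draws monocytes, had 30.1, 10.7, 62.7 and 51.1 TPM in Ad-ATP12A lungs, against 1.35, 1.03, 2.71 and 2.23 TPM in control lungs. All control values were below the lowest Ad-ATP12A value (log2 fold change 3.59 ± 0.321 SE, adjusted p = 6.3e-04). Ccl8, which acts on related receptors, had 86.4, 82.2, 333 and 185 TPM in Ad-ATP12A lungs, against 4.98, 15.1, 13.3 and 10.4 TPM in control lungs. There was no overlap between groups (log2 fold change 3.71 ± 0.369 SE, adjusted p = 8.5e-04). Cxcl13, which draws B cells, and Ccl17, which draws T helper cells, rose by 2.49 and 1.59. The acute cytokine Il1b was 10.2 ± 1.96 TPM in Ad-ATP12A lungs and 15.9 ± 5.92 TPM in control lungs (SD, n = 4 each) and did not pass (adjusted p = 0.224). Of 18 complement genes, 7 were higher, with Cfb (factor B) up by 1.60. Of 11 neutrophil genes, Il1r2 (1.35) and Lcn2 (1.14) were higher and the calgranulin S100a8, at 131 ± 86.1 TPM in Ad-ATP12A lungs and 215 ± 102 TPM in control lungs (SD, n = 4 each), did not pass; without control b2r1 the call of Il1r2 ended (adjusted p = 0.0524), and with the term for Xist neither Il1r2 (0.0834) nor Lcn2 (0.0658) passed. The median of the neutrophil list was -0.78, none was called lower, and without control b2r2 the lower count was 6. Within batches that median was -1.28 in batch 1 and 0.43 in batch 2. In batch 1 alone 7 were lower, and in batch 2 alone 4 were higher.

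Interferon response genes were higher as well. Type I interferon genes, which answer viral nucleic acid, were higher for 14 of 22 and lower for none (median 1.10). Genes that answer interferon gamma, including GTPases and the MHC, were higher for 20 of 26 and lower for none (median 0.71), a count that was 13 without Ad-ATP12A b1r1 or control b1r2. Zbp1, a sensor of left-handed nucleic acid helices, had 56.2, 29, 52.9 and 37.9 TPM in Ad-ATP12A lungs, against 8.39, 8.58, 12.02 and 9.19 TPM in control lungs. The groups did not overlap (log2 fold change 2.06 ± 0.213 SE, adjusted p = 0.00101). Oas3, which makes the oligoadenylate messenger of antiviral defence, had 9.88, 4.25, 6.53 and 6.30 TPM in Ad-ATP12A lungs, against 1.28, 0.64, 1.58 and 0.79 TPM in control lungs. Batch 1 and batch 2 gave 1.97 and 1.79 (log2 fold change 1.88 ± 0.253 SE, adjusted p = 0.00277). Cxcl10, a chemokine for T cells, had 62.8, 27.02, 69.8 and 43.9 TPM in Ad-ATP12A lungs, against 3.63, 2.44, 2.64 and 2.64 TPM in control lungs. Each Ad-ATP12A library was many times above the highest control library (log2 fold change 3.68 ± 0.283 SE, adjusted p = 4.5e-04). Cxcl9, which binds the same receptor, had 21.3, 19.8, 57.8 and 22.2 TPM in Ad-ATP12A lungs, against 1.44, 0.32, 0.76 and 1.25 TPM in control lungs (log2 fold change 3.90 ± 0.326 SE, adjusted p = 5.7e-04). Tgtp1, a GTPase of cell-intrinsic defence, had 122, 68.5, 103 and 62.01 TPM in Ad-ATP12A lungs, against 13.9, 8.78, 9.02 and 7.12 TPM in control lungs. Ad-ATP12A and control values did not overlap (log2 fold change 3.05 ± 0.243 SE, adjusted p = 5.2e-04), though Tgtp1 has a nearly identical neighbour, and how the authors' counting split their reads is unknown. With the term for Xist the type I count was 9 and the interferon gamma count 12.

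Interferon-stimulated promoters are known for an element whose core is GAAA, any 2 bases and GAAA again, bound by the STAT and IRF factors. It was found, on either strand of the RefSeq windows (GRCm38.p6), in 8 of the 14 type I genes with a window and in 10 of the 19 interferon gamma genes with a window, against 3.99% of 27025 genes. The 250 bases before the start are shown for 3 genes described above that hold it, 5′ to 3′ on the strand of the gene, with the core in capitals. All 3 are on the minus strand, Cxcl10 at chr5:92348890-92349139, Oas3 at chr5:120777660-120777909 and Tgtp1 at chr11:48992247-48992496.
Cxcl10: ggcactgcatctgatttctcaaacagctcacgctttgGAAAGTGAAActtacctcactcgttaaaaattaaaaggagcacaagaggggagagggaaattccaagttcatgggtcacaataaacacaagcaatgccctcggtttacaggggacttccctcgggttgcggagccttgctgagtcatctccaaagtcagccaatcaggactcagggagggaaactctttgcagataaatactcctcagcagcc
Oas3: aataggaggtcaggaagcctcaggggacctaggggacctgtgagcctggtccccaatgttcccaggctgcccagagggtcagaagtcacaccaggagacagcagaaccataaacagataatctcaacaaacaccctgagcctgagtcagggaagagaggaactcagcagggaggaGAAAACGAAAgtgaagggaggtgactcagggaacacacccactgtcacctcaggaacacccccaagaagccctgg
Tgtp1: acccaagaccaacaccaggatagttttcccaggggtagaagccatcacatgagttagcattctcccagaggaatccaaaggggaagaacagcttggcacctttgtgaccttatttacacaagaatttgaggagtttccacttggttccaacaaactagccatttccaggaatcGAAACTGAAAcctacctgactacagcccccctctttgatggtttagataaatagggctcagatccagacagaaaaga
The core began 213 bases before the start in Cxcl10, 75 bases before it in Oas3 and 77 bases before it in Tgtp1. No binding was measured in these libraries.

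Lymphocyte genes split by class. T cell genes were higher for 12 of 16 and lower for none (median 0.71). Foxp3, the defining factor of regulatory T cells, had 3.16, 3.36, 1.99 and 2.59 TPM in Ad-ATP12A lungs, against 0.47, 0.42, 0.53 and 0.47 TPM in control lungs. All 4 control values were under 1 TPM, so the gene met the filter only through the 4 Ad-ATP12A libraries. Its lack of overlap follows from that (log2 fold change 1.34 ± 0.156 SE, adjusted p = 0.00162). Ctla4, a checkpoint receptor of activated and regulatory T cells, rose by 1.70 and Icos, a costimulatory receptor, by 1.23. Lck, the kinase of the T cell receptor, had 23.1, 17.9, 22.6 and 20.7 TPM in Ad-ATP12A lungs, against 8.30, 10.2, 11.8 and 9.92 TPM in control lungs. Its values were even within each group (log2 fold change 1.00 ± 0.130 SE, adjusted p = 0.0025). Genes of cytotoxic and NK cells were lower for 4 of 12 and higher for none, against 9.15% and 12.1% of all genes tested. The other 8 did not pass, and the list median was -0.09. Among the lower genes, the granule enzyme Gzma had 12.1, 13.3, 5.06 and 5.96 TPM in Ad-ATP12A lungs, against 45.1, 27.7, 35.01 and 15.9 TPM in control lungs. The highest Ad-ATP12A value was below the lowest control value (log2 fold change -1.67 ± 0.263 SE, adjusted p = 0.00471). Ncr1, an activating receptor of NK cells, changed by -1.36. B cell genes were lower for 5 of 12 (median -0.97), a count that was 0 without Ad-ATP12A b2r2, control b2r1 or control b2r2, 2 without Ad-ATP12A b2r1, 3 without Ad-ATP12A b1r2 or control b1r2 and 9 without Ad-ATP12A b1r1. Ms4a1, which encodes CD20, had 16.4, 12.5, 4.15 and 6.50 TPM in Ad-ATP12A lungs, against 18.9, 21.4, 20.8 and 21.02 TPM in control lungs. The call (log2 fold change -1.14 ± 0.281 SE, adjusted p = 0.0246) ended without Ad-ATP12A b2r2, control b2r1 or control b2r2 (adjusted p = 0.0628, 0.0775 and 0.0614) and with the term for Xist (0.0853). Under the term for Xist, 7 T cell genes, 2 cytotoxic genes and none of the B cell genes stayed called. Genes of thymus and lymph node, tissues that can be taken along with lung, were higher for 2 of 5 (1 with the term for Xist), and the summed level of all 8 on the list was 263, 313, 357 and 571 TPM in Ad-ATP12A lungs, against 185, 177, 184 and 170.2 TPM in control lungs; their part in the lymphocyte genes was not tested.

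Antibody genes showed 1 very large rise. Ighg1, the constant region of IgG1, had 816, 1166, 289 and 3271 TPM in Ad-ATP12A lungs, against 1.63, 1.96, 25.6 and 2.43 TPM in control lungs. The lowest Ad-ATP12A library was more than 10 times the highest control library, and the fold change exceeded that of each of the 15 rises named by rule (log2 fold change 7.56 ± 0.868 SE, adjusted p = 0.00153). Among 17 genes of plasma cells and antibody constant regions, 2 were higher and 1 lower, near the 12.1% and 9.15% of all genes tested. With the term for Xist the counts were 1 and 0. Jchain, which joins IgA and IgM, had 135, 214, 67.5 and 384 TPM in Ad-ATP12A lungs, against 182, 201, 22.4 and 168 TPM in control lungs. The groups overlapped and Jchain did not pass (adjusted p = 0.596). Of 147 variable segments of immunoglobulin genes tested, 14 were higher and 0 lower at the adjusted p, against the same 12.1% and 9.15%, so the share called higher was not above that of all genes. None of these segments can be assigned to a single cell type beyond the B lineage. Of 348 antisense genes tested, 7 were higher, a smaller share than the 12.1% of all genes, and 30 lower, near the 9.15% of all genes. Whether the counting used strand is not given, so reads of an antisense gene and of its partner cannot be told apart.

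Of 19 genes of acid-base and ion transport, 2 were higher and 2 lower, near the shares of all genes called (12.1% and 9.15%), among them Car14, a membrane carbonic anhydrase, at -1.20. The count of higher genes in that list was 1 without control b2r1 or control b2r2 and 4 without Ad-ATP12A b1r2, and with the term for Xist 1 was higher and 1 lower. Cftr, the anion channel of airway epithelium, was 2.65 ± 1.32 TPM in Ad-ATP12A lungs and 4.12 ± 1.58 TPM in control lungs (SD, n = 4 each) and did not pass (adjusted p = 0.0594). Glycolytic genes were higher for 6 of 15 and lower for none, with Ldha (lactate dehydrogenase) up by 1.03 and Pgk1 by 0.81, and 3 of them with the term for Xist. Of 12 antioxidant genes, 1 was higher and 2 were lower (median 0.22), against 12.1% and 9.15% of all genes tested, and 9 did not pass. Hmox1 (haem oxygenase) rose by 1.34, and Gstm1 (a glutathione transferase) and Cat (catalase) changed by -1.72 and -1.21. In fatty acid and sterol synthesis, Insig1 (-0.86) was the 1 gene of 15 past the threshold.

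Muscle genes of the heart and pulmonary veins were lower. The sleeve of the pulmonary veins in mice is made of cardiac muscle, and of 12 such genes 11 were lower and none higher (median -1.84). Myl7, an atrial myosin light chain, had 21.2, 69.4, 14.5 and 48.1 TPM in Ad-ATP12A lungs, against 177, 143, 105 and 174 TPM in control lungs. No library of one group entered the range of the other (log2 fold change -2.16 ± 0.444 SE, adjusted p = 0.0126), and Myl4, another atrial light chain, changed by -2.47. Outside the list, Mb, which encodes myoglobin, had 1.80, 15.1, 3.25 and 8.40 TPM in Ad-ATP12A lungs, against 75.7, 62.6, 31.7 and 82.2 TPM in control lungs. Every control value was above the highest Ad-ATP12A value (log2 fold change -3.21 ± 0.551 SE, adjusted p = 0.00632). Pln, the regulator of the calcium pump of heart muscle and not on the list either, changed by -2.35. The summed level of the list was 103, 322, 91.2 and 205 TPM in Ad-ATP12A lungs, against 817, 634, 409 and 813 TPM in control lungs. How much pulmonary vein or heart tissue each sample held was not measured, and its part in these differences was not tested.

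Several other genes were among the 15 largest falls. Bex2, a small adaptor protein of neurons and endocrine cells, had 2.55, 11.5, 5.24 and 1.96 TPM in Ad-ATP12A lungs, against 53.4, 42.6, 58.1 and 46.9 TPM in control lungs. The groups did not overlap (log2 fold change -3.25 ± 0.409 SE, adjusted p = 0.00222). Cst8, a cystatin, had 0.63, 1.99, 0.43 and 0.17 TPM in Ad-ATP12A lungs, against 15.2, 21.98, 10.3 and 11.97 TPM in control lungs. It was under 2 TPM in every Ad-ATP12A library (log2 fold change -3.18 ± 0.218 SE, adjusted p = 3.5e-04). Acoxl, an acyl-CoA oxidase-like gene, had 7.57, 12.4, 3.85 and 2.79 TPM in Ad-ATP12A lungs, against 92.1, 74.7, 48.1 and 30.2 TPM in control lungs. The ranges were far apart in both batches (log2 fold change -3.08 ± 0.205 SE, adjusted p = 3.4e-04). Ankrd63, Colq (the collagen tail of acetylcholinesterase) and Ces1f (a carboxylesterase) changed by -2.69, -2.56 and -2.44.

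The size of the response differed between the batches for some genes. A test of the difference itself passed for 1257 genes (7.85%), 543 (3.39%) with a more positive effect in batch 2 and 714 (4.46%) with a more negative effect in batch 2. In 896 of them the sign of the within-batch differences was opposite, and 221 were also among the 3398 genes above. Of the genes called higher over both batches, 157 rose more in batch 2 and 13 more in batch 1. Of those called lower, 49 fell more in batch 2 and 2 more in batch 1. Across the 16003 genes, which are not independent replicates, the within-batch differences correlated with r = 0.46 and rho = 0.34. The count was 5 without control b2r2, 36 without control b1r1 and 2379 without control b2r1, in fits made after the data were seen, and 530 in a fit of all 16 libraries.

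**Figure D3:**
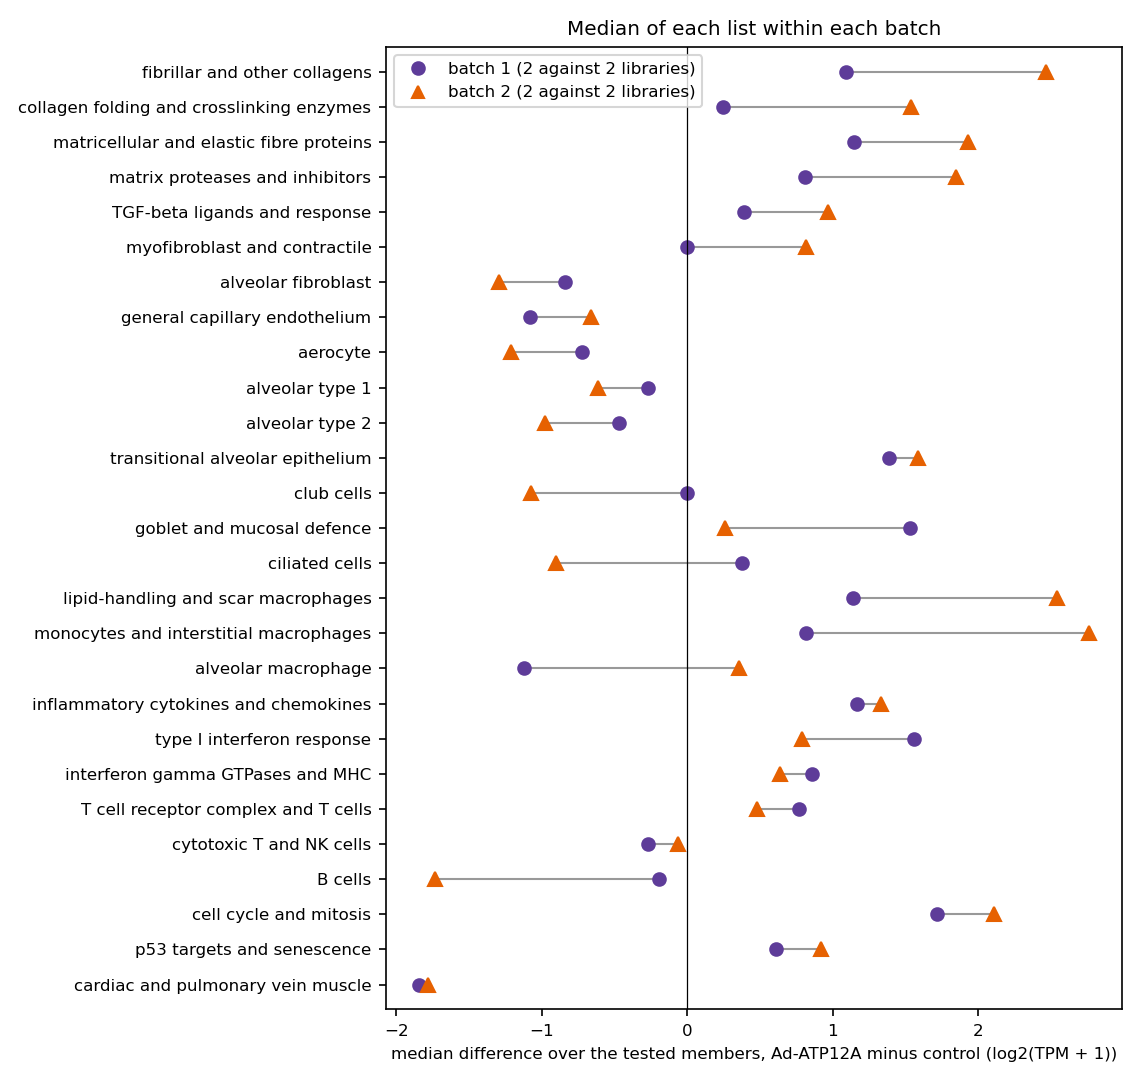
Median difference of the tested members of each list within batch 1 (circles) and within batch 2 (triangles), Ad-ATP12A minus control on the log2(TPM + 1) scale, each from 2 against 2 libraries. Collagen medians are 1.09 and 2.47 and those of monocytes and interstitial macrophages 0.82 and 2.76, cell-cycle medians lie close together at 1.72 and 2.11, and ciliated cell medians have opposite signs at 0.38 and -0.90.

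By list, the collagens had a median of 1.09 in batch 1 and 2.47 in batch 2, and 7 of their 15 members passed the test with a larger rise in batch 2. Lysosomal genes gave 0.45 and 1.37, with 7 of 18 past the test. Goblet and mucosal defence genes went the other way with 1.53 and 0.26, and 2 of 12 passed. Genes of the circadian clock had medians of 0.02 and -1.39, and 7 of 14 passed with a more negative difference in batch 2. Dbp, a clock output factor whose level cycles through the day, had 50.2, 75.03, 22.6 and 22.4 TPM in Ad-ATP12A lungs, against 28.5, 57.4, 235 and 171 TPM in control lungs. Both batch 2 control values were above every other value of the comparison (difference between the batches -3.69 ± 0.468 SE, adjusted p = 0.0179). The hour of sampling is not given.

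The genes with the smallest p for a batch difference were Rnu11, Fxyd3, Gpnmb, Serpina3n and H2-Ob. Rnu11, an RNA of the minor spliceosome, had 28.4, 20.7, 0 and 0 TPM in Ad-ATP12A lungs, against 0, 0, 42.4 and 16.5 TPM in control lungs (difference between the batches -9.44 ± 0.543 SE, adjusted p = 0.00365). Its order between the groups was opposite in the 2 batches. Serpina3n, an acute-phase protease inhibitor, had 84.2, 87.5, 447 and 587 TPM in Ad-ATP12A lungs, against 50.7, 55.8, 60.9 and 49.4 TPM in control lungs (difference between the batches 2.52 ± 0.234 SE, adjusted p = 0.0139). It was higher in both batches, and its call over both batches (adjusted p = 0.0206) ended without Ad-ATP12A b2r1, Ad-ATP12A b2r2 or control b2r1 (adjusted p = 0.0604, 0.0512 and 0.0695) and with the term for Xist (0.102). H2-Ob, an MHC class II chaperone of B cells, had 42.05, 34.2, 8.79 and 9.64 TPM in Ad-ATP12A lungs, against 32.8, 38.3, 44.8 and 52.7 TPM in control lungs (difference between the batches -2.38 ± 0.223 SE, adjusted p = 0.0139). Batch 2 Ad-ATP12A libraries were the lowest. Fxyd3, a small membrane protein that regulates ion transport, had within-batch differences of 1.41 in batch 1 and -1.12 in batch 2 (difference between the batches -2.53 ± 0.169 SE, adjusted p = 0.00427).

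Set directly against bleomycin alone in a fit of all 16 libraries, Ad-ATP12A lungs differed in 4 of 17003 genes (0.0235%), 3 higher (0.0176%) and 1 lower (0.00588%), and 509 genes had an unadjusted p under 0.05. Against Ad-GFP, 1 gene passed (0.00588%), Atp12a, and 413 had an unadjusted p under 0.05. Atp12a was higher than in bleomycin lungs by 3.49 ± 0.424 SE (adjusted p = 0.00837) and higher than in Ad-GFP lungs by 3.54 ± 0.424 SE (adjusted p = 0.0144). In fits of the 8 libraries of each pair alone, no gene passed in either comparison. Without 1 library at a time, Atp12a and Kng1 passed against bleomycin alone in all 8 fits. Against Ad-GFP, Atp12a did not pass without Ad-ATP12A b2r2 or without any 1 of the 4 Ad-GFP libraries, and no other gene took its place. Nor did it pass against Ad-GFP with the term for Xist (adjusted p = 0.0546).

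Kng1, which encodes kininogen, the precursor of bradykinin that the liver makes, had 13.96, 4.93, 13.9 and 14.4 TPM in Ad-ATP12A lungs, 0.48, 0.52, 0.33 and 0.54 TPM in bleomycin lungs, 10, 15.1, 11.9 and 4.23 TPM in Ad-GFP lungs and 0.02, 0, 0.04 and 0 TPM in control lungs. Ad-ATP12A libraries lay above all bleomycin libraries (difference 3.03 ± 0.333 SE, adjusted p = 0.00518) and among those of Ad-GFP (difference 0.19 ± 0.333 SE, adjusted p = 0.999). The summed level of 12 liver and plasma protein genes, Kng1 among them, was 671, 451, 472 and 664 TPM in Ad-ATP12A lungs, against 638, 360.2, 557 and 394 TPM in control lungs. Asgr2, a subunit of the asialoglycoprotein receptor, did not reach the filter of the control comparison. It had 2.09, 0.95, 0.73 and 1.84 TPM in Ad-ATP12A lungs, 7.76, 9.03, 3.09 and 6.49 TPM in bleomycin lungs, 1.18, 1.80, 0.94 and 0.82 TPM in Ad-GFP lungs and 0.78, 0.40, 0.33 and 0.51 TPM in control lungs. It was lower in Ad-ATP12A lungs than in bleomycin lungs (difference -1.63 ± 0.234 SE, adjusted p = 0.029) and overlapped Ad-GFP lungs (difference 0.11 ± 0.234 SE, adjusted p = 0.999). Igkv4-72, a kappa light chain variable segment, had 114, 122, 115 and 245 TPM in Ad-ATP12A lungs, 10.8, 1.31, 15.1 and 9.63 TPM in bleomycin lungs, 17.5, 1.53, 21.2 and 14.3 TPM in Ad-GFP lungs and 12.7, 12.3, 9.10 and 22.6 TPM in control lungs. Every Ad-ATP12A library was above every other library of the series. The difference was 4.10 ± 0.591 SE from bleomycin lungs (adjusted p = 0.029) and 3.66 ± 0.591 SE from Ad-GFP lungs (adjusted p = 0.198) which did not pass. Reads of alike segments may be split among them. Against bleomycin alone, the call of Asgr2 ended in 6 of the 8 fits without 1 library, all but those without Ad-ATP12A b2r2 or bleomycin b2r1. That of Igkv4-72 ended in 6 of the 8 as well, all but those without Ad-ATP12A b2r1 or bleomycin b1r1. Neither Asgr2 (adjusted p = 0.175) nor Igkv4-72 (adjusted p = 0.123) passed against bleomycin alone with the term for Xist.

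**Figure D4:**
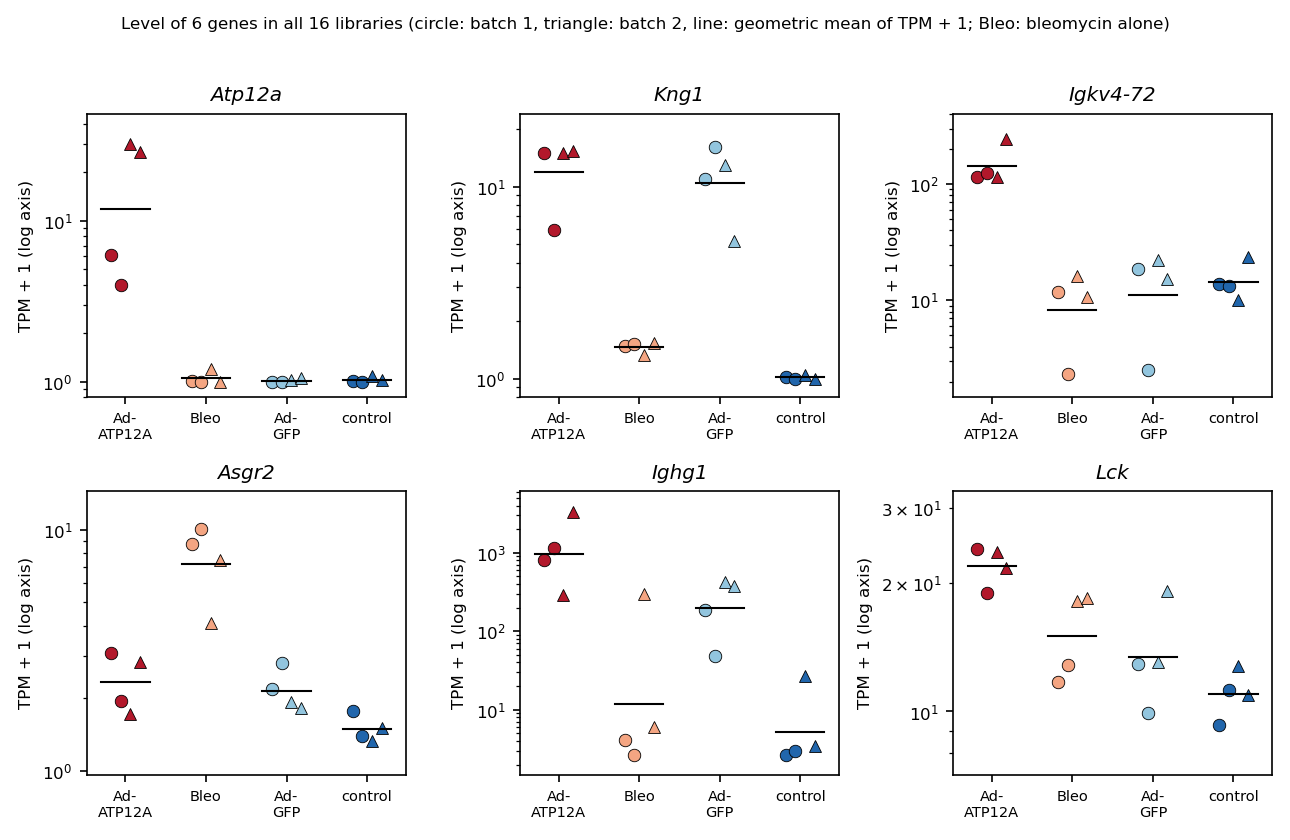
Level of 6 genes in all 16 libraries as TPM + 1 on a log axis, with Ad-ATP12A lungs leftmost, then bleomycin alone (Bleo), Ad-GFP and control lungs. Circles are batch 1, triangles batch 2, and lines the geometric mean of TPM + 1. Atp12a stands above 1 TPM in Ad-ATP12A lungs alone, Kng1 is high with either vector, Asgr2 is highest in bleomycin lungs, and Igkv4-72 is between 114 and 245 TPM in Ad-ATP12A lungs and between 1.31 and 22.6 TPM elsewhere.

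Gene lists in the direct comparisons are described by their unadjusted p-values, since no member besides Atp12a and Kng1 passed the adjusted threshold in either. Against bleomycin alone, 14 of 26 interferon gamma and MHC genes had an unadjusted p under 0.05 in the higher direction (1.31% of all genes tested did) and none in the lower (1.68% of all), with a median difference of 0.50. The summed level of that list was 14675, 13891, 11859 and 10440 TPM in Ad-ATP12A lungs, against 10263, 9393, 11572 and 13711 TPM in bleomycin lungs. That sum was higher in Ad-ATP12A lungs in batch 1 and overlapped in batch 2. Goblet and mucosal defence genes had 7 of 12 higher against bleomycin alone (median 1.00). Their summed level was 1023, 1147, 261 and 387 TPM in Ad-ATP12A lungs, against 375, 333, 411 and 361 TPM in bleomycin lungs. The sums were apart in batch 1 and overlapped in batch 2. Against Ad-GFP, 9 of 16 T cell genes had an unadjusted p under 0.05 in the higher direction (1.16% of all genes tested did) and none in the lower (1.26% of all, median 0.54), and 5 of 17 plasma cell and antibody genes did so. The T cell list summed to 182, 170, 176 and 170 TPM in Ad-ATP12A lungs, against 113, 91.7, 105 and 187 TPM in Ad-GFP lungs. The sum in Ad-GFP b2r2 was above that of every Ad-ATP12A library. Red blood cell genes, which move with the blood left in the tissue, had 5 of 7 higher against bleomycin alone (median 0.99). Their summed level was 9247, 11326, 39839 and 23304 TPM in Ad-ATP12A lungs, against 5789, 7514, 9538 and 14096 TPM in bleomycin lungs. These sums were apart within each batch and overlapped across batches. Lck had 23.1, 17.9, 22.6 and 20.7 TPM in Ad-ATP12A lungs and 11.9, 8.92, 12.1 and 18.2 TPM in Ad-GFP lungs. A single Ad-GFP value lay within the Ad-ATP12A range, and the difference of 0.72 ± 0.152 SE had an adjusted p of 0.965. Xist was at 10 TPM or more in 1 of 4 bleomycin libraries and in 1 of 4 Ad-GFP libraries.

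The 3 treated groups were each set against the same control libraries, so their values against control share those libraries and are given side by side with no test between them. The collagen list had medians of 2.04 for Ad-ATP12A, 1.81 for bleomycin alone and 1.94 for Ad-GFP. The cell-cycle list had 1.93, 1.81 and 1.57, and the transitional epithelium list 1.64, 1.70 and 1.66. Taken directly, Ad-ATP12A minus bleomycin alone gave medians of -0.04 for collagens, 0.11 for cell-cycle genes and -0.08 for transitional epithelium, and no member of these 3 lists had an unadjusted p under 0.05. That no gene passed does not show that the groups are alike: the SE of Col1a1 in that comparison was 0.592 on the log2 scale around a difference of -0.10.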

How the data were processed

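RNA of 16 mouse lung libraries was measured, and 4 Ad-ATP12A and 4 control libraries carry the main comparison. The deposited values are log2(TPM + 1), 1 column a library, made by the authors with STAR and RSEM on GRCm39, per the submitters' processing notes (versions, strand setting and annotation release are not given in the sources used here). TPM was recovered from these log2 values. TPM keeps no read counts, so depth is unknown. Symbols were matched by Ensembl ID for 52093 of 53647 genes, and promoter sequences came from RefSeq (GRCm38.p6), so no gene coordinates on the files' build are given.

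Genes with 1 TPM or more in at least 4 of the 8 libraries were fitted in limma 3.58.1 (R 4.3.3) on log2(TPM + 1) with group and batch, a trend in the prior variance and Benjamini-Hochberg adjustment over all genes tested. The batch difference added the interaction of group and batch. The 2 direct comparisons used all 16 libraries and 4 group means with batch, and genes at 1 TPM or more in at least 4 of the 16. Tables and figures used Python 3.11.15, pandas 2.3.3, NumPy 2.4.6 and matplotlib 3.10.9.

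The comparison and 53 lists (725 symbols, 4 of them not matched) were chosen with earlier results of these data known. Named genes were the 15 largest rises and falls with the same sign in both batches and no overlap, list members with the smallest p or needed to say what did not pass, and the genes with the smallest p for the batch difference and the direct comparisons. Gene models without a symbol, predicted genes, pseudogenes and receptor segments were counted but passed over, except that Igkv4-72 is named as 1 of 4 called genes. Some further list members were named after their values were seen, and some members are not reported here. Alternatives covered the pseudocount, filters, scaling, batch, Xist, a replicate block, the variance prior and each library left out.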

Additional observations from a re-analysis of the deposited data

Results flagged for a closer look

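In the 143 genes named, each group of 4 libraries was searched for a library whose gap to its nearest neighbour exceeded Dixon's limit for 4 values as a share of the range of log2(TPM + 1), and 18 of 286 groups held one. Chance alone gives about 1 in 20 groups. Xist and the Y-linked Ddx3y made up 4 of the 18. Xist was 0.07 TPM in Ad-ATP12A b2r1, with 74.4 to 157 TPM in the other 3 Ad-ATP12A libraries. Xist was 118 TPM in control b1r1, with 0.14 to 0.49 TPM in the other 3 control libraries. Ddx3y was 42.9 TPM in Ad-ATP12A b2r1, with 0.00 to 0.03 TPM in the other 3 Ad-ATP12A libraries. Ddx3y was 0.01 TPM in control b1r1, with 30.1 to 50.9 TPM in the other 3 control libraries. Control b2r1 stood apart in 4 more. Scgb1a1 was 441 TPM in control b2r1, with 102724 to 122337 TPM in the other 3 control libraries. Jchain was 22.4 TPM in control b2r1, with 168 to 201 TPM in the other 3 control libraries. Ighg1 was 25.6 TPM in control b2r1, with 1.63 to 2.43 TPM in the other 3 control libraries. Pln was 9.15 TPM in control b2r1, with 21.7 to 24.3 TPM in the other 3 control libraries. Among the other control libraries, Col3a1 was 55.3 TPM in control b2r2, with 99.4 to 109.6 TPM in the other 3 control libraries. Ccna2 was 2.93 TPM in control b2r2, with 3.95 to 4.14 TPM in the other 3 control libraries. Tppp3 was 390.1 TPM in control b1r1, with 432 to 441 TPM in the other 3 control libraries. Among Ad-ATP12A libraries, Kng1 was 4.93 TPM in Ad-ATP12A b1r2, with 13.9 to 14.4 TPM in the other 3 Ad-ATP12A libraries. Cldn4 was 13.2 TPM in Ad-ATP12A b1r2, with 33.8 to 40.6 TPM in the other 3 Ad-ATP12A libraries. Postn was 152 TPM in Ad-ATP12A b1r1, with 254 to 279 TPM in the other 3 Ad-ATP12A libraries. Ankrd63 was 1.11 TPM in Ad-ATP12A b1r2, with 0.33 to 0.37 TPM in the other 3 Ad-ATP12A libraries. Cxcl9 was 57.8 TPM in Ad-ATP12A b2r1, with 19.8 to 22.2 TPM in the other 3 Ad-ATP12A libraries. Igkv4-72 was 245 TPM in Ad-ATP12A b2r2, with 114 to 122 TPM in the other 3 Ad-ATP12A libraries. Siglecf was 11.4 TPM in Ad-ATP12A b2r2, with 2.25 to 2.67 TPM in the other 3 Ad-ATP12A libraries.

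For 31 of the named genes the effect, Ad-ATP12A minus control, differed between the batches by limma's interaction term at an adjusted p under 0.05. The values that follow are the effect in batch 2 minus that in batch 1 on the log2 scale. The effect was more positive in batch 2 for the matrix genes Tnc (2.21), Eln (2.04), Col1a1 (2.22), Col1a2 (1.62), Lox (2.49), P4ha3 (1.51), Adam12 (1.94) and Mmp14 (1.53). The same held for the macrophage and lysosome genes Gpnmb (3.11), Spp1 (2.08), Arg1 (3.96), Ctss (1.20) and Cd200r1 (1.38). Signalling and stress genes with a more positive effect in batch 2 were Grem1 (2.85), Sfrp1 (1.31), Pmepa1 (1.19), Pgf (1.18), Cxcl12 (1.10), Cdkn1a (1.38) and Serpina3n (2.52), and Acta2 (1.38) was another. The vector's gene Atp12a (2.46) also differed. The effect was more negative in batch 2 for the epithelial genes Sftpc (-2.36), Cyp2f2 (-1.64), Tppp3 (-1.43) and Fxyd3 (-2.53), for the B cell genes H2-Ob (-2.38) and Ms4a1 (-1.36), and for Slc7a10 (-2.41) and Dbp (-3.69). Rnu11 had the widest difference (-9.44), since it was listed at 0 in control lungs of batch 1 and in Ad-ATP12A lungs of batch 2. What the batches are is not given beyond their names in the titles.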

How the results depend on the processing

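Of the settings tried on the number of genes called in Ad-ATP12A against control (3398), 3 moved it by over 1.5 times besides left-out libraries. The term for Xist gave 1259, a minimum absolute log2 fold change of 1 gave 98, and the replicate block gave 1865. Replicate numbers did not pair the libraries (correlation of replicate differences between the groups 0.06 in batch 1 and -0.05 in batch 2), so the block is a comparison of settings only. Without 1 library the count lay between 2131 and 3101. The other settings gave between 2404 (no filter) and 3839 (all 16 libraries). The share of called genes that were higher was 56.9%, against 47.8% with quantile normalization, which moved the median of all genes by -0.04. All 3398 genes kept their sign in every setting that tested them. They were called on these same libraries, and a call all but requires the same sign in both batches, so this is no separate support. For Atp12a, splits within batches gave the same difference (3.52) with an exact p of 0.0556, above 0.05 by the number of such splits. The batch difference (1257) gave 530 with all 16 libraries and 5 to 2379 without 1 library, a setting chosen after seeing the data. Against bleomycin alone (4) the count was 0 with the 8 libraries alone, 2 without a batch term, with the term for Xist, with a pseudocount of 0.1 or with a mean of at least 5 TPM (which left 2 of the 4 untested), and 2 to 6 without 1 library. Against Ad-GFP (1) it was 0 with the 8 libraries alone, with the replicate block, with the term for Xist or with a mean of at least 5 TPM (which left that gene untested), and 0 to 1 without 1 library.

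Directions reversed for genes that had not passed, and the cause was not tested. In batch 1 alone the effect was -0.01 for Acta2, 0.03 for Ager, -0.11 for Col14a1, 0.59 for Dbp, 0.10 for H2-Ob, -0.17 for Jchain, 4.66 for Rnu11, -1.04 for Scgb1a1 and 0.28 for Sftpc. In batch 2 alone it was -1.12 for Fxyd3, 0.49 for S100a8 and 0.30 for Siglecf. With the term for Xist it was 0.06 for Ddx3y and -0.10 for Xist. Those 2 values follow from the term, which was made from Xist and which Ddx3y mirrors in these libraries. With array weights the effect was 1.50 for Rnu11. Without 1 library, values lay from -0.12 to 0.42 for Fxyd3, -0.12 to 1.02 for Jchain, -1.10 to 1.14 for Rnu11 and -1.39 (without control b2r1) to 1.86 for Scgb1a1. Depth is unknown, so what it limits cannot be given.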
